A study of Mus musculus with 6 samples.

Results

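L1MdTf and L1MdGf are groups of LINE-1 retrotransposons, the autonomous long interspersed elements of the mouse genome. They were taken here as every repeat name starting with L1MdTf_ or L1MdGf_, which gave 5 of the 1336 rows counted in each library: L1MdTf_I, L1MdTf_II, L1MdTf_III, L1MdGf_I and L1MdGf_II. The cells were mouse embryonic fibroblasts of the BALB/c strain from embryos of 10.5 days. KO cells, labelled β-actin knockout, lacked both copies of Actb, which encodes β-actin, a protein of the cytoskeleton that also acts in the nucleus, and WT cells carried the gene. Each genotype had 3 libraries of total RNA depleted of ribosomal RNA, described by the series as biological replicates. Nothing in the labels says whether these came from separate embryos or cultures, so p-values measure the spread between these libraries, which may be technical. The rows hold repeats and structural RNA and no protein-coding gene, so neither Actb RNA nor fibroblast markers were analysed here.

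A full-length LINE-1 carries an internal promoter, a gene for an RNA-binding protein and a gene for an enzyme that nicks DNA and copies the RNA back into it. In the mouse the promoter is built of tandem monomers, and the monomer type gives the A, Tf and Gf groups their names. Within a name the Roman numerals mark subfamilies, with I the most recently active. Together with the A group, Tf and Gf hold most copies still able to move in the mouse genome, and fibroblasts, like other somatic cells, normally keep such copies repressed by DNA methylation.

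Estimated counts per library ran from 9191049 to 19288620 in KO and from 7708630 to 17937809 in WT, and the 3 rRNA rows took 52.9% to 84.8% of them in KO and 32.4% to 84.1% in WT. The 5 LINE-1 rows together had 2991, 7802 and 5986 counts in KO replicates 1, 2 and 3, against 9608, 2845 and 5261 counts in WT replicates 1, 2 and 3. Levels are therefore given as CPM of an effective library size (normalized CPM), which the TMM method takes from the bulk of rows rather than from rRNA. A row sums every copy of its subfamily, whole or truncated, so reads from copies inside introns or untranslated regions of genes cannot be told apart from transcription started by the element's own promoter. The files give no length, so levels were compared between genotypes and not between subfamilies. In bulk RNA, fewer cells carrying a transcript and less transcript per cell cannot be told apart either.

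No L1MdTf or L1MdGf subfamily changed past the threshold between KO and WT cells. The subfamilies numbered I stood highest relative to WT, at 1.14 times the WT level for both L1MdTf_I and L1MdGf_I, and L1MdGf_II stood lowest, at 0.961. All 5 rows had enough counts to be tested, 4 had a fold change above 0 (none did when scaled by total counts, rRNA included), and 0 passed edgeR's quasi-likelihood test at a Benjamini-Hochberg adjusted p of 0.05 over 1193 tested rows. With DESeq2 and with limma-voom the count was also 0. L1MdTf_I was the 1 row of the 5 under 0.05 before adjustment in edgeR, where 249 of all 1193 tested rows were. Over all tested rows 5.78% passed, 2.18% as higher and 3.6% as lower in KO, and 52.3% had a fold change above 0. When scaled by total counts, rRNA included, 9.39% of all tested rows were above 0.

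L1MdTf_I, the youngest Tf subfamily, had 37.5, 37.7 and 39.5 normalized CPM in KO replicates 1, 2 and 3, against 37.1, 32.0 and 31.1 in WT replicates 1, 2 and 3. All KO libraries lay above all WT libraries, by a margin of under 1 normalized CPM over WT replicate 1. Its mean was 38.2 ± 1.12 in KO and 33.4 ± 3.25 in WT (SD, n = 3 each), which is 0.18 ± 0.07 as a log2 fold change (± standard error, here and below; edgeR adjusted p = 0.210). L1MdTf_I was the 1 row of the 5 with KO wholly above WT, an arrangement found in 12.4% of all tested rows. Over both directions, 25.8% of tested rows had genotypes that did not overlap.

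L1MdTf_II, the next subfamily of that group, had 36.1, 39.3 and 44.4 normalized CPM in KO replicates 1, 2 and 3, against 42.3, 35.4 and 33.8 in WT replicates 1, 2 and 3. The genotypes overlapped, with WT replicate 1 above KO replicates 1 and 2. The log2 fold change was 0.10 ± 0.10 (edgeR adjusted p = 0.639).

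L1MdTf_III, the oldest of the Tf rows, had 70.0, 79.9 and 81.7 normalized CPM in KO replicates 1, 2 and 3, against 81.8, 73.5 and 72.7 in WT replicates 1, 2 and 3. The lowest library was KO replicate 1 and the highest WT replicate 1, so the genotypes overlapped fully. The log2 fold change was 0.02 ± 0.07 (edgeR adjusted p = 0.905), and its sign turned without replicate 2 or replicate 3 of either genotype. The 3 Tf values thus stood in the order I, II, III, but their 95% intervals overlapped, from 0.01 to 0.36 for L1MdTf_I, from -0.14 to 0.33 for L1MdTf_II and from -0.14 to 0.19 for L1MdTf_III, so no order of change is shown.

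L1MdGf_I, the younger Gf subfamily, had 43.1, 48.5 and 50.9 normalized CPM in KO replicates 1, 2 and 3, against 48.5, 35.8 and 39.7 in WT replicates 1, 2 and 3. WT replicate 1 again stood with the KO libraries, and the genotypes overlapped. Its mean was 47.5 ± 3.99 in KO and 41.3 ± 6.50 in WT (SD, n = 3 each). The log2 fold change was 0.19 ± 0.11, with a 95% interval of -0.06 to 0.44 (edgeR adjusted p = 0.388).

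L1MdGf_II, the older Gf subfamily and the row with the most counts of the 5, was the 1 row with a fold change below 0. It had 179.7, 182 and 187 normalized CPM in KO replicates 1, 2 and 3, against 189, 193 and 189 in WT replicates 1, 2 and 3. All KO libraries lay below all WT libraries, an arrangement found in 13.4% of all tested rows, at means of 183 ± 3.84 in KO and 190.4 ± 2.57 in WT (SD, n = 3 each). The log2 fold change was -0.06 ± 0.05 (edgeR adjusted p = 0.571), and its 95% interval ran from a fold of 0.888 to a fold of 1.04.

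**Figure D1:**
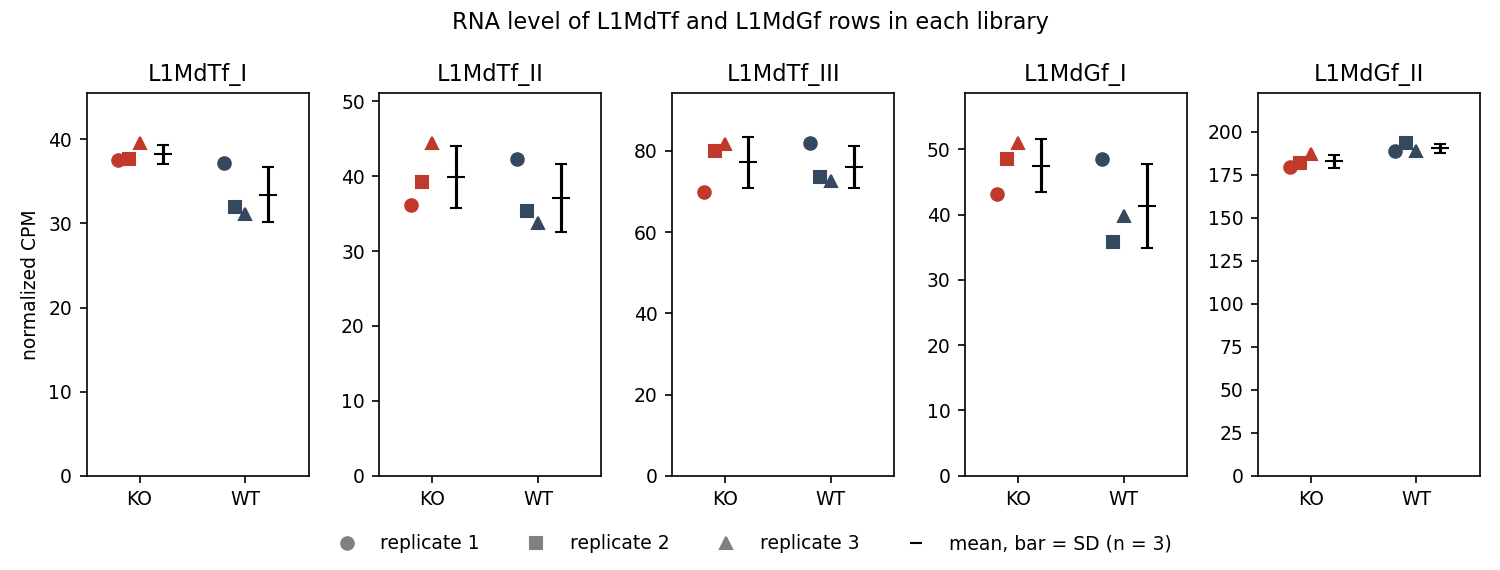
Normalized CPM (vertical axis, from 0, a separate scale per panel) of each of the 5 rows in KO and WT libraries, with symbols for replicate numbers and the mean with SD beside them. L1MdTf_I lies higher in all KO libraries, L1MdGf_II lies lower in all of them by a small margin, and WT replicate 1 sits at the level of the KO libraries in the other 3 panels.

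The spread between libraries exceeded the counting error in 1 or both genotypes for every row but L1MdGf_II. L1MdGf_II varied by 2.10% of its mean over the KO libraries and 1.35% over the WT libraries, while the counting error of a single library, with 1467 to 4554 counts, was 1.48% to 2.61%. Its replicates thus differed by no more than counting error allows. L1MdGf_I, with 275 to 1168 counts, varied by 8.41% in KO and 15.7% in WT, against a counting error of 2.93% to 6.03%. L1MdTf_II varied by 10.4% in KO and 12.2% in WT, L1MdTf_III by 8.18% and 6.67%, and L1MdTf_I by 2.93% and 9.74%. On the TMM scale the 95% interval of L1MdGf_I ran from a fold of 0.957 to a fold of 1.36, and the widest limits of the 3 Tf rows were folds of 0.907 and 1.28. These intervals hold for that scale: standard errors of the 5 log2 fold changes were 0.05 to 0.11 there, but 0.34 to 0.35 when scaled by counts outside rRNA and 1.18 to 1.24 when scaled by total counts.

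WT replicate 1 was the highest WT library for 4 of the rows, so the rows were also set against each other within each library, which needs no scaling factor. Of the 10 possible pairs, 3 had ratios that did not overlap between genotypes. The pairs share rows, and the 25.8% given above is for levels of single rows. The share over pairs of other rows was not computed. L1MdTf_I stood at 0.209, 0.207 and 0.211 counts per count of L1MdGf_II in KO replicates 1, 2 and 3, against 0.197, 0.165 and 0.165 in WT replicates 1, 2 and 3. The KO libraries lay close together on this ratio and above every WT library, and the log2 difference was 0.26. That separation follows from the levels above, where L1MdTf_I lay higher and L1MdGf_II lower in every KO library, so it is given without a test.

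L1MdTf_III separated in the same way from both subfamilies numbered I. The ratio of L1MdGf_I to L1MdTf_III was 0.616, 0.608 and 0.623 in KO replicates 1, 2 and 3, against 0.592, 0.487 and 0.547 in WT replicates 1, 2 and 3. The ratio of L1MdTf_I to L1MdTf_III was 0.536, 0.472 and 0.484 in KO replicates 1, 2 and 3, against 0.454, 0.435 and 0.428 in WT replicates 1, 2 and 3. Both had an exact two-sided permutation p of 0.1, the smallest that 3 against 3 libraries allow, and an adjusted p of 0.333 over the 10 pairs. The ratio of the subfamilies numbered I to each other, L1MdGf_I over L1MdTf_I, averaged 1.24 ± 0.0794 in KO and 1.23 ± 0.101 in WT (SD, n = 3 each), a log2 difference of 0.01 (exact permutation p = 0.8).

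**Figure D2:**
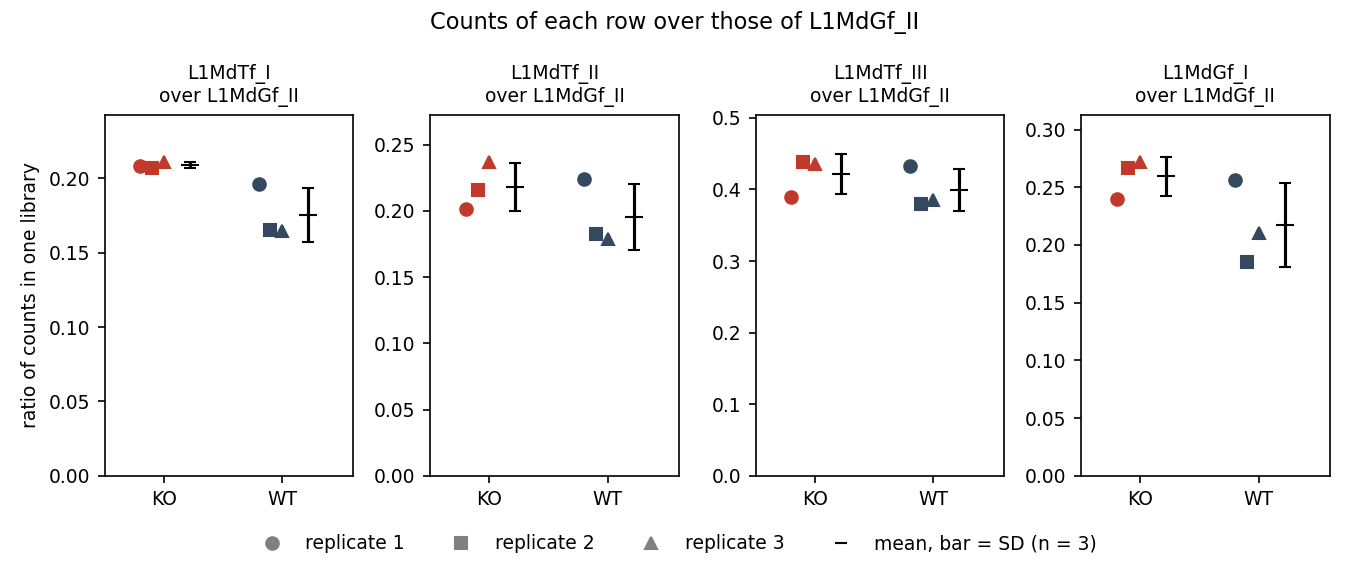
Ratio of the counts of each of the other 4 rows to the counts of L1MdGf_II in the same library (vertical axis, from 0), for KO and WT, with symbols for replicate numbers and the mean with SD. For L1MdTf_I the KO ratios of 0.207 to 0.211 all lie above the WT ratios, whereas in the other 3 panels WT replicate 1 lies within the KO range.

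As a share of their own sum, the 5 rows kept similar proportions. L1MdGf_II made up 49.0%, 47.0% and 46.4% of it in KO replicates 1, 2 and 3, against 47.4%, 52.3% and 51.6% in WT replicates 1, 2 and 3. L1MdTf_I made up 10.2%, 9.73% and 9.79% in KO against 9.32%, 8.65% and 8.50% in WT, without overlap. L1MdTf_I and L1MdGf_II, whose levels are given above, are both part of that sum, so this is not a separate result. The share of all rows without overlap on this denominator was not computed. The sum of the 5 rows was 386 ± 18.7 normalized CPM in KO and 378 ± 17.8 in WT (SD, n = 3 each), and the genotypes overlapped.

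Next, the rows were set against the other rows named L1Md, 7 of them L1MdA rows and 13 with other L1Md names. Of the other 20 rows named L1Md, 3 (L1MdA_I, L1MdA_VI and L1MdV_I) followed the rRNA level of the library with Pearson r of 0.97 or more over 6 libraries, and their intervals were too wide for a comparison. The remaining 17, of which 5 were L1MdA rows, all had fold changes above 0. Their median log2 fold change was 0.17, with a range of 0.10 to 0.26. In edgeR 1 of them passed, where 5.78% of all tested rows did. Over all 20 other L1Md rows, DESeq2 called 1 L1MdA row and 2 others higher, and limma-voom called 0. In edgeR 3 L1MdA rows and 6 others were under an unadjusted p of 0.05, where 249 of all 1193 tested rows were. The row that passed was L1MdA_V, at 87.5 ± 7.16 normalized CPM in KO and 72.8 ± 1.57 in WT (edgeR adjusted p = 0.0462), a call lost in each of the 6 fits without 1 library. The median of the 5 Tf and Gf rows was 0.10, and that of all tested rows 0.01. L1MdTf_I and L1MdGf_I lay within the range of the 17 rows, and L1MdTf_III and L1MdGf_II lay below it. Scaled by total counts, rRNA included, the medians were -0.36 for the 5 rows and -0.36 for all rows, the same value at this rounding.

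Counted against the sum of those 17 rows within each library, L1MdGf_II stood at 4.89%, 4.71% and 4.48% in KO replicates 1, 2 and 3, against 5.33%, 5.61% and 5.49% in WT replicates 1, 2 and 3. L1MdTf_III stood at 1.90%, 2.07% and 1.95% in KO, against 2.31%, 2.13% and 2.11% in WT. In both rows every KO library lay below every WT library, with log2 differences of -0.22 and -0.14 (exact permutation p = 0.1 for each, 0.25 after adjustment over the 5 rows). On the same denominator, whose own rows all had fold changes above 0, 31.7% of all tested rows lay lower in every KO library and 35.2% did not overlap in either direction, so these 2 of 5 rows are near the share of all rows. The other 3 rows overlapped between the genotypes, with log2 differences of -0.06 for L1MdTf_II, 0.03 for L1MdTf_I and 0.04 for L1MdGf_I (exact permutation p = 0.7 for each).

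**Figure D3:**
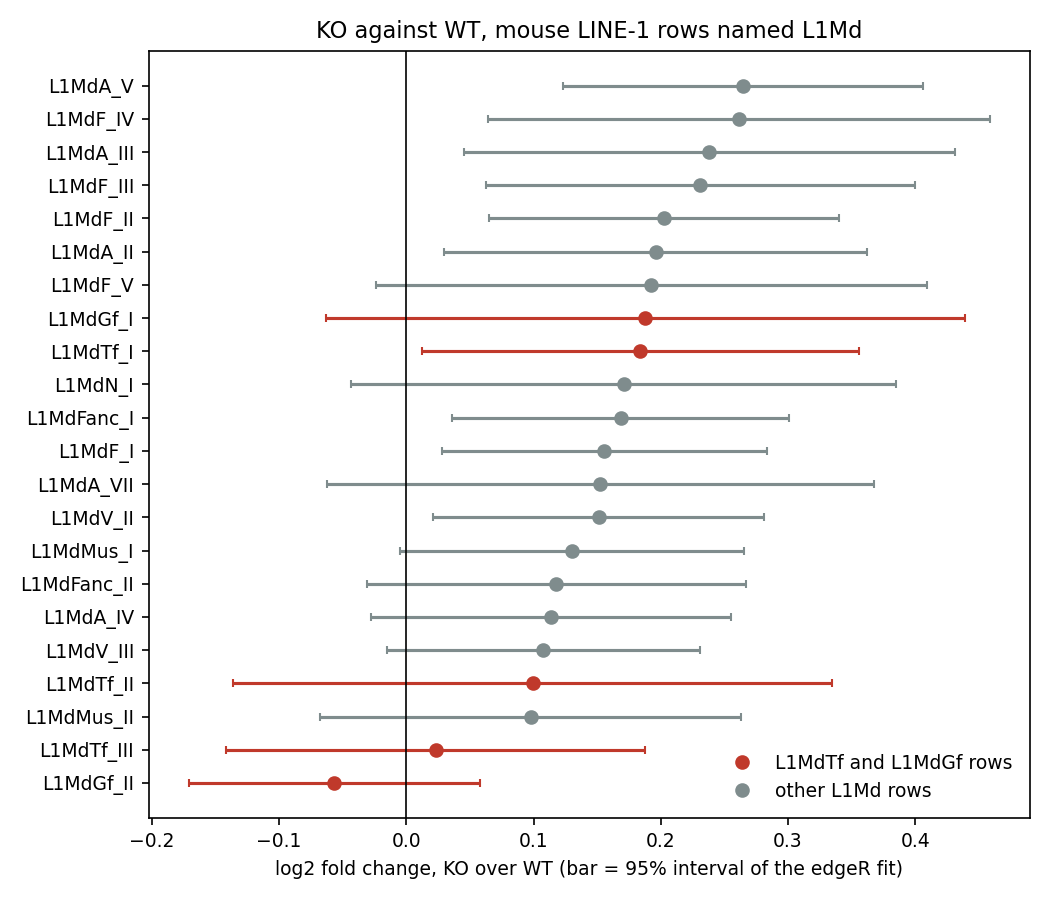
Log2 fold change of KO over WT (horizontal axis) with its 95% interval from the edgeR fit for the 5 Tf and Gf rows (red) and the 17 other L1Md rows that did not follow rRNA (grey), highest at the top. L1MdGf_II, at -0.06, and L1MdTf_III, at 0.02, are the lowest, and L1MdTf_I, from 0.01 to 0.36, is the 1 red row whose unadjusted interval lies wholly above 0.

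Other LINE-1 rows and the SINEs, short elements without proteins of their own that LINE-1 proteins can copy and insert, gave the wider setting. Of 21 rows with names starting with Lx, an older rodent LINE-1 group, none passed in edgeR or limma-voom and 1 rose in DESeq2. Their median log2 fold change was 0.16, and 6 were under an unadjusted p of 0.05 in edgeR. Of all 1193 tested rows, 249 were under that unadjusted p. Of the 103 remaining LINE-1 rows, which hold the Lx subfamilies named L1Lx, 2 rose in edgeR, where 2.18% of all tested rows did. These were L1Lx_IV at 0.24 and L1ME3B at 0.23. The median was 0.04, with 65 of the 103 above 0. DESeq2 and limma-voom each called 2 higher, and 13 higher and 1 lower were under an unadjusted p of 0.05 in edgeR. Neither L1Lx_IV nor L1ME3B was called in any of the 6 fits without 1 library. Scaled by total counts they were at -0.14 and -0.15, with L1MdA_V at -0.14. Of 16 B1 rows none passed in edgeR, DESeq2 or limma-voom, with 0 under an unadjusted p of 0.05 and a median of -0.10. Of 5 B2 rows B2_Mm1a fell, by 0.62 on the log2 scale (edgeR adjusted p = 0.00429), and the median was -0.26. B2_Mm1a was called in each of the 6 fits without 1 library. Scaled by total counts it was at -0.96, on a scale where 0 of all tested rows were called in edgeR. DESeq2 and limma-voom called 3 of the 5 B2 rows lower, and 3 were under an unadjusted p of 0.05 in edgeR, while of 4 B4 rows none passed by any of these tools (0 under an unadjusted p of 0.05, median -0.06). Scaled by total counts, the medians of the L1MdA, other L1Md, Lx and remaining LINE-1 rows all lay below 0, at -0.18, -0.22, -0.22 and -0.33. The median of all tested rows on that scale was lower, at -0.36.

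The share of each row in all LINE-1 counts was compared as a measure that needs no scaling factor, and it moved with the rRNA level. The 5 LINE-1 rows that followed rRNA (L1_Mur3, L1MC4a and the 3 L1Md rows above) took 60.2%, 18.8% and 40.4% of LINE-1 counts in KO replicates 1, 2 and 3, against 12.4%, 61.6% and 40.7% in WT replicates 1, 2 and 3. With them in the denominator, L1MdGf_II averaged 0.458% ± 0.156 in KO and 0.517% ± 0.199 in WT, and L1MdTf_I 0.0955% ± 0.0320 in KO and 0.0930% ± 0.0452 in WT (SD, n = 3 each). The exact permutation p was 0.7 or more for each of the 5 rows, and 1 after adjustment. With those 5 rows left out, a denominator chosen after seeing the data, L1MdGf_II took 0.769%, 0.761% and 0.754% in KO replicates 1, 2 and 3, against 0.828%, 0.856% and 0.840% in WT replicates 1, 2 and 3. Here too every KO library lay below every WT library, at the smallest p the design allows (exact permutation p = 0.1, adjusted p = 0.5). The other 4 rows overlapped (exact permutation p of 0.4 to 0.9). The share of all rows lying wholly lower in KO on this denominator was not computed. Scaled by it in edgeR, the median log2 fold change of all tested rows was -0.08, with 79 called lower and 17 higher.

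Among the Tf and Gf rows themselves, none rose with rRNA. Over the 6 libraries, Pearson r between log2 level and the log2 ratio of rRNA to other counts was -0.72 for L1MdTf_III (Spearman rho -0.71, exact permutation p = 0.114 and 0.136), the strongest of the 5 relations computed. It was -0.57 for L1MdGf_I, -0.50 for L1MdTf_II, -0.29 for L1MdTf_I and -0.01 for L1MdGf_II (exact permutation p = 0.244, 0.318, 0.625 and 0.985), with rho of -0.37, -0.31, 0.03 and -0.26 (exact permutation p = 0.497, 0.564, 1 and 0.658). After adjustment the lowest p was 0.530 for r and 0.681 for rho. Without WT replicate 1 and KO replicate 2, the libraries farthest from the median rRNA level, r was -0.48 for L1MdTf_III, -0.33 for L1MdGf_I, -0.17 for L1MdTf_II, 0.16 for L1MdTf_I and -0.25 for L1MdGf_II, weaker in size for each row except L1MdGf_II, and of the other sign for L1MdTf_I.

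WT replicate 1 had the least rRNA, 32.4%, and the most counts of the 5 rows, and was the highest WT library for every one of them except L1MdGf_II. Without it, the log2 fold changes were 0.33 for L1MdGf_I, 0.28 for L1MdTf_I, 0.22 for L1MdTf_II, 0.08 for L1MdTf_III and -0.06 for L1MdGf_II. The lowest edgeR adjusted p was then 0.0603, for L1MdTf_I. Leaving out the highest WT library lowers the WT mean of those rows, so their rise here follows from the choice of library. Without WT replicate 2 or WT replicate 3 instead, the edgeR adjusted p of L1MdTf_I was 0.419 and 0.431. With rRNA level added to the model and all 6 libraries kept, L1MdGf_I was at 0.26 (edgeR adjusted p = 0.0689) and L1MdTf_I at 0.22 (edgeR adjusted p = 0.0993). Over all alternatives the adjusted p ran from 0.0689 to 0.999 for L1MdGf_I and from 0.0603 to 0.999 for L1MdTf_I. What sets WT replicate 1 apart was not tested.

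**Figure D4:**
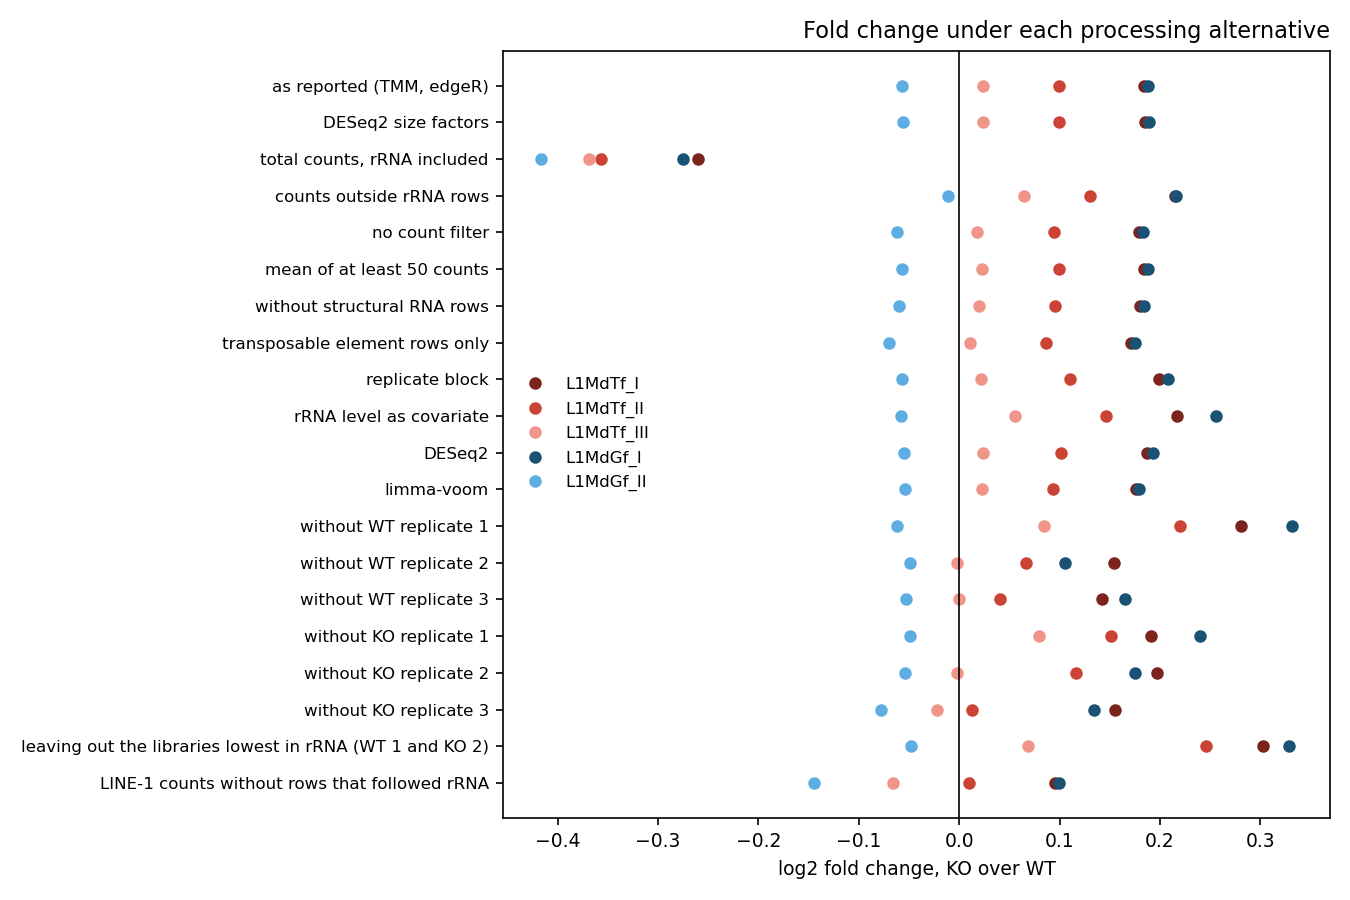
Log2 fold change of KO over WT (horizontal axis) of each of the 5 rows as reported and under each of 19 alternatives (vertical axis). L1MdGf_II lies below 0 in all of them, L1MdTf_I and L1MdGf_I lie above 0 except when scaled by total counts with rRNA included, and L1MdTf_III changes side in 6 of them.

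Across the 6 libraries L1MdGf_I, L1MdTf_I, L1MdTf_II and L1MdTf_III varied together, with Pearson r of log2 level between 0.56 and 0.89 for their pairs, while L1MdGf_II ran from -0.60 with L1MdTf_I to 0.14 with L1MdTf_III. These points share libraries, scaling and possibly reads, since the sources used here do not say how a read matching more than 1 subfamily was counted. Among the 935 other rows that averaged at least 50 counts, the pattern most like L1MdTf_I was that of MLTR73 (r = 0.98), an ERV1 row, followed by HERVL74-int (0.98) and RLTR22_Mur (0.96). The row most like L1MdGf_I was RLTR10 (r = 0.99), followed by RLTR9A2 and RLTR10D2 (0.98 each), all ERVK rows. The rows most like L1MdTf_II were RLTR23 (r = 0.97), RMER17A-int and RMER13A1 (0.95 each). For L1MdTf_III they were RLTR26_Mus (r = 0.96), LTR33A (0.93) and L1MD3 (0.93), the last the 1 LINE-1 row among the 15 rows so named. For L1MdGf_II they were U13 (r = 0.99), a small nucleolar RNA, RLTR31D_MM (0.94) and MER63D (0.94). None of these 15 rows passed the test between KO and WT in edgeR.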

How the data were processed

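Per the labels' protocols, libraries were made with a TruSeq Ribo-Zero kit. The submitters' processing notes name FastQC 0.11.5, Trimmomatic and Bowtie2, and the builds mm10 and GRCm38. The authors deposited 1 table per sample of estimated counts, called fractional in the file names and all whole numbers, for 1336 repeat names with class and family. The sources used here do not name the repeat counter or annotation, or say how strand and multi-mapping reads were treated.

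The count model was edgeR 4.0.16 in R 4.3.3. filterByExpr kept 1193 rows and removed 143, TMM gave effective library sizes, and the quasi-likelihood test gave KO over WT, with p-values adjusted after Benjamini and Hochberg over all tested rows. Standard errors came from the test statistic, and 95% intervals used the fit's degrees of freedom. Correlations used log2 levels with 0.5 counts added. Ratios and shares were compared by exact two-sided permutation tests. Ratios between rows and against the other L1Md rows were added after seeing the data. DESeq2 1.42.0 and limma 3.58.1 (voom) were alternatives. The rows were given by name, and the comparison lists were chosen with earlier results of these data known. All rows matching the names were described, any called row of a comparison list was named, and so were the 3 rows most like each. The procedure was run on simulated data whose planted changes were all larger than those of the Tf and Gf rows. That run therefore does not show how well changes as small as theirs would be found. Counting errors cover counting only. Over all rows, rRNA included, replicates of a genotype differed by far more than sampling noise (chi-square divided by its degrees of freedom was at least 442 for every pair). The rRNA share, which differed between these libraries, enters that value, so it does not describe the repeat rows alone.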

Additional observations from a re-analysis of the deposited data

How the results depend on the processing

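In the 19 alternatives, no Tf or Gf row passed the threshold, and L1MdGf_II stayed below 0. Scaled by total counts, rRNA included, the log2 fold changes were -0.27 for L1MdGf_I, -0.26 for L1MdTf_I, -0.36 for L1MdTf_II, -0.37 for L1MdTf_III and -0.42 for L1MdGf_II, where the median of all rows was also -0.36. Scaled by LINE-1 counts without the rows that followed rRNA, added after seeing the data, L1MdTf_III was at -0.066, L1MdGf_I at 0.099, L1MdTf_I at 0.096, L1MdTf_II at 0.0096 and L1MdGf_II at -0.14. L1MdTf_III without a single library ran from -0.023 to 0.084. Without a single library the others ran from 0.11 to 0.33 for L1MdGf_I, -0.08 to -0.05 for L1MdGf_II, 0.14 to 0.28 for L1MdTf_I and 0.01 to 0.22 for L1MdTf_II.

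Calls over all rows numbered 69 as reported. They were 0 in edgeR scaled by total counts (3 rows at an unadjusted p under 0.05), 6 scaled by counts outside rRNA, 41 without structural RNA rows, 41 with transposable elements only, 9 without WT replicate 1 and KO replicate 2, and 22 to 69 without a single library. There were 77 in DESeq2, 92 with rRNA in the model and 96 scaled by LINE-1 counts without the rows that followed rRNA. With the replicate block there were 24 calls, and no Tf or Gf row among them. The numbers were not used for pairing: deviations of KO and WT libraries sharing number 1, 2 or 3 correlated at -0.39, -0.34 and 0.01, and not every library correlated best with its own number.

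The KO minus WT difference in share of LINE-1 counts, in percentage points, ran without a single library from -0.0254 to 0.0373 for L1MdGf_I, -0.154 to 0.0445 for L1MdGf_II, -0.0168 to 0.0273 for L1MdTf_I, -0.0253 to 0.0259 for L1MdTf_II and -0.0576 to 0.0372 for L1MdTf_III. As a share of counts outside structural RNA it was 0.00095 for L1MdTf_II and 0.000343 for L1MdTf_III, and with the rows that followed rRNA left out it was 0.00182 for L1MdTf_II, against -0.00342 for L1MdTf_II and -0.0149 for L1MdTf_III as reported. The cause of these turns was not tested. The fewest counts of a row in a library were 246, a counting error of 6.38%.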
